A study of Mus musculus with 12 samples.

Results

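The 10 genes described here form a list of uridine transport and salvage genes. Most carry uridine across membranes or feed it into the salvage and breakdown of pyrimidines. Slc29a4, however, encodes a monoamine transporter, and the activity of mammalian Uprt is not settled. The members are the equilibrative transporters Slc29a1, Slc29a2, Slc29a3 and Slc29a4, the sodium-coupled transporter Slc28a2, the kinases Uck1 and Uck2, the phosphorylase Upp1, the deaminase Cda and Uprt. They were taken by symbol from the 54532 genes of the count table, after its Ensembl identifiers had been matched to GENCODE M21, and all 10 were found. Of these, 9 passed the filter on low counts and were among the 16675 genes tested, and Cda did not pass. The 12 libraries hold bulk RNA of haematopoietic stem and progenitor cells (HSPCs) from mouse bone marrow, in 4 groups of 3: uncultured cells of young wild-type mice, uncultured cells of aged wild-type mice, and aged cells cultured with vehicle or with uridine. All are labelled wild type, and the labels name no transgene. The strain was entered as c57bl/6 for the 3 vehicle libraries and with a number that rises by 1 from library to library, from c57bl/7 to c57bl/15, for the other 9, so the strain of those 9 cannot be read from the labels. Ages, sex, sorting markers, uridine dose and culture time were not given in the sources used, nor was it stated that replicate libraries are separate animals. The p-values thus rest on a spread between libraries that could be technical alone.

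Uridine is the main pyrimidine nucleoside of plasma, and cells that do not make enough pyrimidine of their own take it up. Equilibrative transporters let nucleosides pass down their gradient in either direction, whereas the concentrative transporters use the sodium gradient to draw them in. Inside the cell, uridine-cytidine kinases phosphorylate uridine to UMP, the step that traps it and that limits the rate of salvage, and uridine phosphorylase splits it to uracil and ribose 1-phosphate. Dividing blood progenitors need pyrimidine nucleotides for RNA and DNA, for glycosylation and for phospholipid synthesis.

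The sequences of the family members bear on how well their reads can be told apart. The coding sequences of Uck1 and Uck2 were 74.1% identical over 776 aligned bases. Their most alike stretch of 75 coding bases, given here because it is where reads of the 2 kinases are hardest to separate, is identical at 66 positions, and the capitals mark the bases that differ between them (GENCODE M21 transcripts, 5′ to 3′, coding bases 640 to 714 of Uck1 and 616 to 690 of Uck2).
Uck1: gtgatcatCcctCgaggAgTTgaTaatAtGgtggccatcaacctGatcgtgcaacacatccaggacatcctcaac
Uck2: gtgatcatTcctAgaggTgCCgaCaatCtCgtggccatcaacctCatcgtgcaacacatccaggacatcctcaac
A read of 150 bases, the length in the protocols, spans more than this stretch. No window of that length in the Uck2 transcript was found in another gene, and 5.06% of the windows of Uck1 were found in Gm4482, which held 1.19 to 1.44 CPM (counts-per-million of the TMM-scaled library total) in the group means. The 4 equilibrative transporters were 62.1% to 65.7% identical to each other in coding sequence. Slc28a2 has a neighbour on chromosome 2, Gm14085 (ENSMUSG00000079071, chr2:122484941-122528040, plus strand), with 94.8% identity over the aligned coding bases and a longest shared run of 192 bases. Of the 150-base windows of Slc28a2, 11.5% were found in Gm14085. The counts of both genes are therefore uncertain, by an amount not measured here, and more so for Gm14085, which is the lower of the pair in every group.

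The promoters of Upp1 and Slc28a2 are shown because Upp1 had the widest range of group means after Slc29a4, and Slc28a2 the opposite course with age to the other well-expressed transporters. RefSeq gives 3 starts for Upp1, and the window before the first is shown. The window before the second overlaps it and holds the same 2 motif matches, and that before the third holds none of the motifs searched. Each window holds the 250 bases before the RefSeq start (GRCm38.p6, plus strand, 5′ to 3′), and the capitals mark motif matches on either strand.
Upp1 chr11:9117758-9118007: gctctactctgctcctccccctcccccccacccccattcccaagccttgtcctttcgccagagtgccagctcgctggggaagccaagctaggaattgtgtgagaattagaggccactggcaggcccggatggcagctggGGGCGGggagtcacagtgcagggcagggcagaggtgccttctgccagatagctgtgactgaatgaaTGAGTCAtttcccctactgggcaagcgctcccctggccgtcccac
Slc28a2 chr2:122426185-122426434: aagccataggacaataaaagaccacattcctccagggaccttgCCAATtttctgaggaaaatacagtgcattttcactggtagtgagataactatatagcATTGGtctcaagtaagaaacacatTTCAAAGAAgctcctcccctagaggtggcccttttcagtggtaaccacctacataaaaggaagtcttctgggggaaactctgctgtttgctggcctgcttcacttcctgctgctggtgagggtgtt
In all, 6 motifs were searched on both strands. The AP-1 site was searched as TGANTCA, and the Upp1 window held 1. The GC box was searched as GGGCGG, and the same window held 1. The CCAAT box was searched by those letters, and the Slc28a2 window held 2. The STAT site was searched as TTCNNNGAA, and that window held 1. The E-box, searched as CACGTG, and the TATA box, searched as TATAAA, were in neither window. Among 32851 RefSeq promoter windows of the same length, 6.75% held the AP-1 site, 32.7% the GC box, 33.8% the CCAAT box and 7.02% the STAT site. The Upp1 window was 62.4% G and C, and that of Slc28a2 45.2%.

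Library totals ran from 16785065 to 19025802 counts. Immunoglobulin genes took 21.6% to 21.9% of the counts of aged uncultured libraries and under 1% of all others, and the summed level of 6 plasma cell markers had a median of 25590 CPM in the aged uncultured libraries against 631 CPM in young ones. All 7 markers of stem and progenitor cells were detected in every group, with Kit at 202 to 274 CPM in the group means. They did not move together: Kit was lower with age, while Ly6a was at 17.8 CPM in young, 247 in aged, 455 in vehicle and 258 in uridine libraries, and Procr at 2.88, 15.5, 18.2 and 10.0 CPM. The groups differed in their markers of other cell types, by age as well as by culture. Summed monocyte and macrophage markers had medians of 1248 CPM in young, 277 in aged, 3452 in vehicle and 2261 in uridine libraries. Summed B cell markers stood at 532, 1820, 41.8 and 194 CPM in the same order, and 5 proliferation markers at 3474, 1431, 2189 and 2715 CPM. Summed mature neutrophil markers were at 5386, 580, 323 and 2057 CPM, and stroma markers at 522, 11.8, 1.95 and 144 CPM. Both sums were highest in young libraries. All 8 neutrophil markers were lower with age, and of 4 tested stroma markers 3 were lower and 1 higher. The part of these markers in the members' differences was not tested. One pattern touches every comparison of uridine with vehicle. Among the 145 genes with a young uncultured mean of at least 5 CPM and 10 times the vehicle mean or more (vehicle means under 0.05 CPM taken as 0.05), the uridine mean lay at a median of 0.333 of the way from vehicle to young (quartiles 0.310 and 0.363). Summed erythroid markers, for example, had medians of 458 CPM in young, 8.10 in vehicle and 157 in uridine libraries. The uridine mean lay between those of vehicle and young for 70.5% of all genes tested. The place of each tested member on this scale is given below from group means, without a spread, as are those of 4 pathway genes. Most members differ far less between young and vehicle than the 145 genes do. The 145 genes are also all higher in young, whereas the means of Slc29a2, Slc29a3, Upp1 and Uprt are higher in vehicle. For that direction no reference set was taken, and the part of this pattern in the results was not tested.

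**Figure D1:**
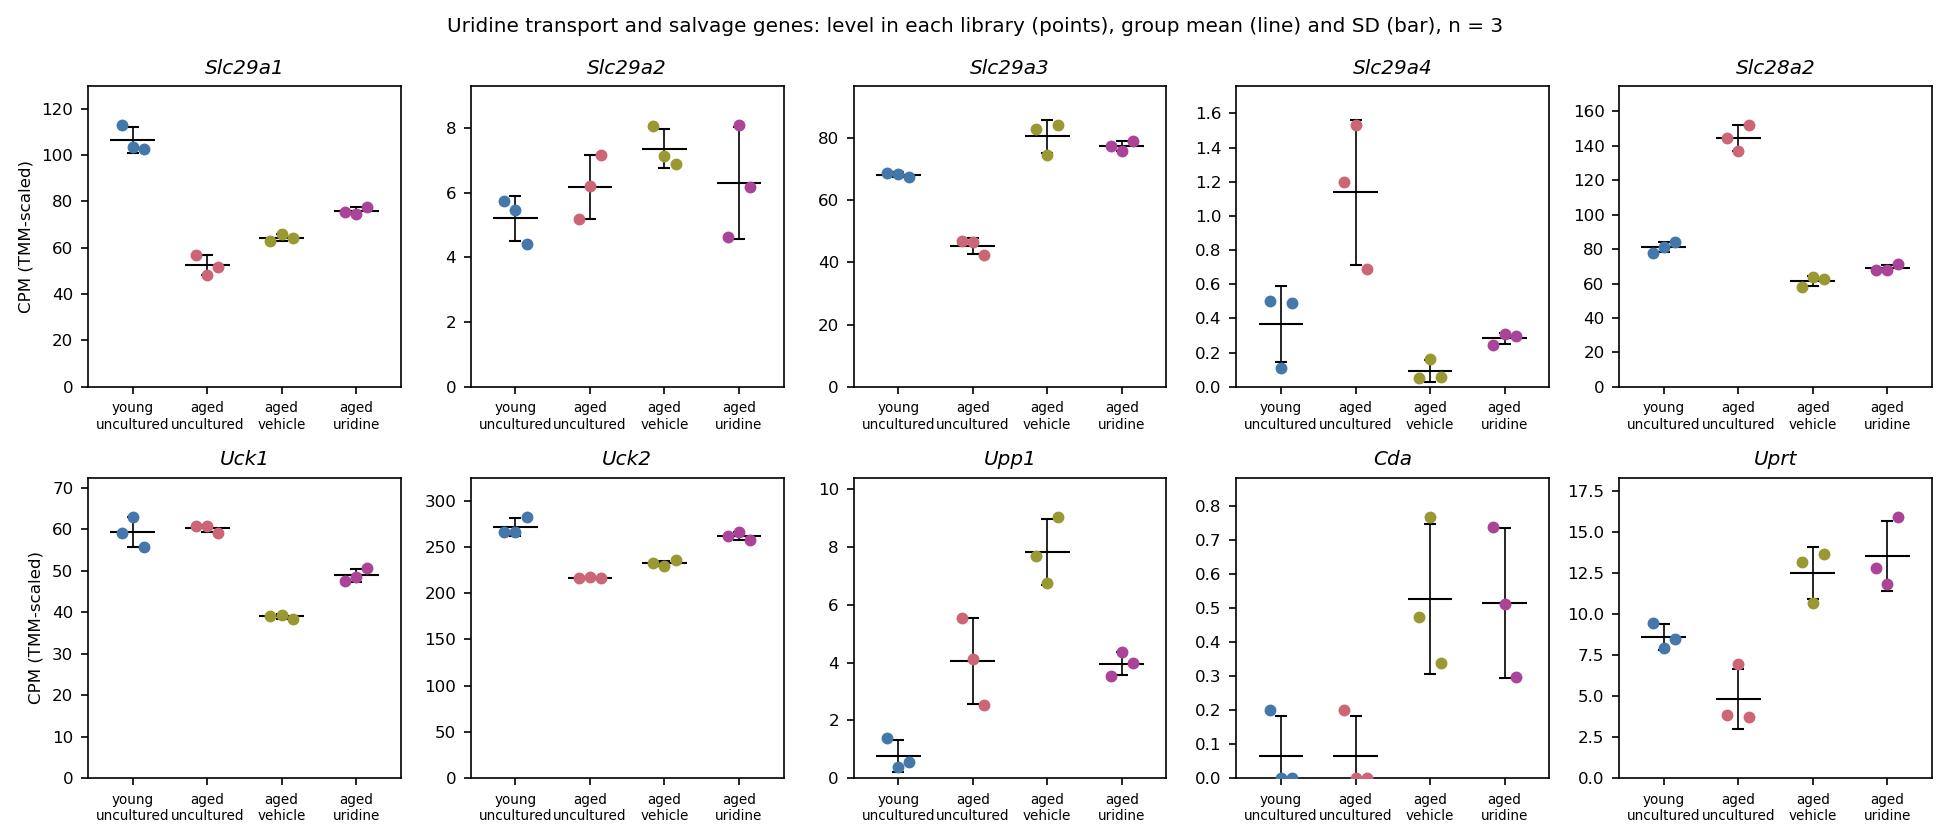
Level of each of the 10 genes in CPM (vertical axis, own scale in each panel) in the 4 groups, with points for the 3 libraries and bars for the mean and SD. Slc28a2 and Slc29a1 show opposite orders of the young and aged uncultured groups, and Upp1 is lowest in young and highest in vehicle libraries.

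On a scale corrected for length, Uck2 was the most abundant member in every group, at 49.7 ± 1.78 CPM per kilobase of exon in young libraries (SD, n = 3), 39.7 in aged, 42.5 in vehicle and 47.9 in uridine libraries. Slc29a1, Slc28a2 and Uck1 came next, each between 13.1 and 34.3 CPM per kilobase in the group means, and Slc29a3 was at 7.77 to 13.8. Uprt was at 2.10 to 5.89, Slc29a2 at 1.73 to 2.44 and Upp1 at 0.396 to 3.99 CPM per kilobase. Slc29a4 and Cda were at most 0.398 and 0.509 CPM per kilobase.

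With age, in uncultured cells, Slc28a2, Slc29a4 and Upp1 were higher and Slc29a1, Slc29a3, Uck2 and Uprt were lower. The libraries of the 2 ages did not overlap for any of these 7 genes. The changes ran from a fall of 1.02 on the log2 scale for Slc29a1, and a fall of 0.32 for Uck2, to a rise of 2.35 for Upp1. Uck1 and Slc29a2 did not pass the threshold (adjusted p 0.746 and 0.253). So 7 of the 9 tested members were called by edgeR's quasi-likelihood test at an adjusted p of 0.05, beside a background of 65.3% of all genes tested, with 33.2% higher and 32.1% lower, and 3 and 4 members on each side. One of the 3, Slc29a4, entered the test through the aged group in which it is high, and 2 members were higher under the alternatives that did not test it, a filter of 1 CPM in 3 libraries and a fit of the 6 libraries compared. Of the calls over all genes, 50.8% were higher, or 25.9% with library totals as the only scaling. By the libraries alone, 3 tested members were higher and 4 lower without overlap, beside 66.9% of all genes (33.8% and 33.1%). The median log2 difference was 0.02 over the members and 0.02 over all genes tested. In these bulk libraries, fewer cells of a type and less RNA per cell cannot be told apart.

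Between uridine and vehicle cultures of aged cells, Slc29a1, Slc28a2, Uck1 and Uck2 were higher with uridine and Upp1 was lower. The rises were small, from 0.17 to 0.33 on the log2 scale, and Upp1 fell by 0.98. Slc29a2, Slc29a3, Slc29a4 and Uprt did not pass the threshold. The 5 of 9 members called stand beside 38.1% of all genes, with 20.0% higher and 18.1% lower. Libraries did not overlap for 5 members higher, Slc29a4 among them, and 1 lower, beside 25.2% and 24.8% of all genes. The median log2 difference was 0.17 over the members and -0.001 over all genes. The uridine mean of 8 of the 9 tested members lay between the vehicle and young means, the exception being Uprt, beside 70.5% of all genes. When 0.333 of the young level was subtracted from the uridine libraries, 2757 of 16665 genes were called, 39.6% of them higher, in place of 6360. Uck2 alone among the members was still called higher (log2 0.13, adjusted p 0.00834) and none was called lower. The 0.333 was read from these same libraries. For a gene whose uridine mean lies near that place the loss of a difference is thus built in. What remains for a gene further along, such as Uck2 at 0.756, follows from its place in the same way. The adjusted p-values after the subtraction, here and below, treat the remainder as counts and leave out the error of the 0.333. They are descriptions and not tests of the members, and the cause was not tested.

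Vehicle culture of aged cells, set against uncultured aged cells, came with higher Slc29a1, Slc29a3, Uck2, Upp1 and Uprt and lower Slc29a4, Slc28a2 and Uck1. The rises reached 1.37 on the log2 scale for Uprt, and Slc28a2 fell by 1.24. Slc29a2 did not pass the threshold (adjusted p 0.205). The 8 of 9 members called stand beside 70.5% of all genes, with 35.4% higher and 35.1% lower. The same 2 alternatives leave out Slc29a4 and call 2 members lower. Of all these calls 50.2% were higher, or 69.9% with library totals as the only scaling. Without overlap 5 were higher and 3 lower, beside 71.5% of all genes (36.1% and 35.4%). The median log2 difference was 0.25 over the members and -0.01 over all genes. This comparison shares its aged uncultured libraries with the comparison of ages and its vehicle libraries with that of uridine, so the 3 sets of values are not independent.

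**Figure D2:**
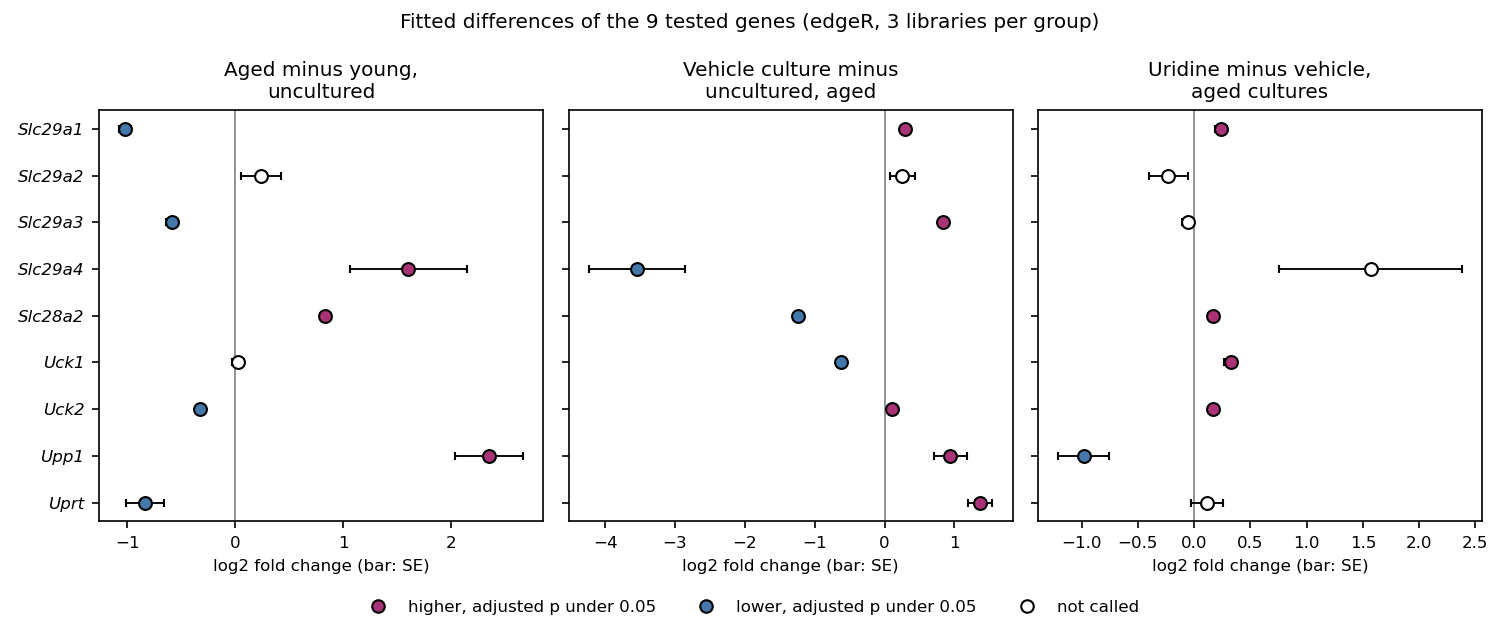
Log2 difference of each tested member (horizontal axis) in the 3 comparisons, with bars of 1 SE from the fit across all genes. Slc28a2 and Slc29a4 are higher with age and lower in vehicle culture. Slc29a1, Slc29a3, Uck2 and Uprt are lower with age and higher in vehicle culture. The uridine differences lie nearest 0 for Slc29a3 and Uprt.

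Slc29a1 encodes ENT1, the main equilibrative nucleoside transporter of the plasma membrane of blood cells (ENSMUSG00000023942, chr17:45585200-45599606 in GRCm38, minus strand). The young libraries held 113, 104 and 103 CPM, the aged 56.9, 48.4 and 51.9, the vehicle cultures 62.8, 65.8 and 64.4 and the uridine cultures 75.6, 74.7 and 77.8. The order was young, uridine, vehicle, aged, with no overlap between neighbours. Its level in aged cells was 52.4 ± 4.31 CPM against 106 ± 5.67 in young ones (SD, n = 3), a fall of 1.02 (SE 0.0531, adjusted p 8.54e-19) on the log2 scale. Vehicle cultures lay 0.30 above uncultured aged cells (adjusted p 1.40e-05), and uridine cultures 0.24 above vehicle (SE 0.0516, adjusted p 0.000267). The summed proliferation markers had the same order of groups, with all 5 lower with age and all 5 higher with uridine. Their sum ran from 3462 to 3497 CPM in young, 1399 to 1439 in aged, 2173 to 2201 in vehicle and 2709 to 2715 in uridine libraries, and their part in these differences was not tested. The uridine mean was at 0.278 of the way from vehicle to young, and after the subtraction its sign turned (log2 -0.10, adjusted p 0.313). An antisense gene, Gm17080, overlaps 6.86% of the exon length of Slc29a1.

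Slc28a2, the sodium-coupled transporter CNT2 that carries purine nucleosides and uridine into the cell (ENSMUSG00000027219, chr2:122426477-122461137, plus strand), had another order. Aged uncultured libraries held 145, 137 and 152 CPM and young ones 78.0, 81.4 and 84.2. Vehicle cultures held 58.0, 63.8 and 62.4 CPM and uridine cultures 67.8, 67.8 and 71.2. No library of one group overlapped another group, and the aged uncultured cells stood well above the rest. The rise with age was 0.83 (SE 0.0458, adjusted p 4.51e-18) and the difference of vehicle cultures from uncultured aged cells -1.24 (SE 0.0472, adjusted p 4.39e-23). With uridine it was 0.17 above vehicle (SE 0.0488, adjusted p 0.00593), a call that was lost without vehicle replicate 1 (log2 0.13, adjusted p 0.0715). The uridine mean lay at 0.381 of the way to young, and with the subtraction the difference was 0.02 (adjusted p 0.881). The order of groups was shared by the summed B cell, T and NK cell and granulocyte progenitor markers. The B cell sum ran from 526 to 534 CPM in young, 1776 to 1862 in aged, 40.04 to 43.17 in vehicle and 190 to 209 in uridine libraries. Of these 6 markers 5 were higher and 1 lower with age, 6 lower in vehicle culture and 6 higher with uridine. The T and NK cell sum had medians of 103 CPM in young, 265 in aged, 37.1 in vehicle and 54.9 in uridine libraries, and the granulocyte progenitor sum 9386, 13700, 3820 and 5741 CPM. The part of these markers was not tested. The near-copy Gm14085 went the same way in all 3 comparisons, at 9.49 ± 0.701 CPM in young, 19.3 ± 1.56 in aged, 0.658 ± 0.205 in vehicle and 3.89 ± 0.386 in uridine libraries. Its difference between uridine and vehicle was 2.56 (adjusted p 2.81e-11), at 0.366 of the way to young. The 2 genes summed to 90.7, 164, 62.0 and 72.8 CPM.

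The 2 best expressed surface transporters thus moved apart with age. The level of Slc28a2 over that of Slc29a1, both in CPM per kilobase, was 0.658 to 0.780 in young libraries and 2.42 to 2.79 in aged uncultured ones. It stood at 0.879 to 0.923 in vehicle and 0.853 to 0.872 in uridine cultures. Aged uncultured cells were therefore the 1 group of the 4 in which the concentrative transporter had the higher level per length, in each of its 3 libraries. Whether a ratio near 1 falls above it depends on the exon lengths taken, 4208 bases for Slc28a2 and 4008 for Slc29a1. It also depends on the reads that Slc28a2 shares with Gm14085. The cultured groups lay near each other and without overlap.

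**Figure D3:**
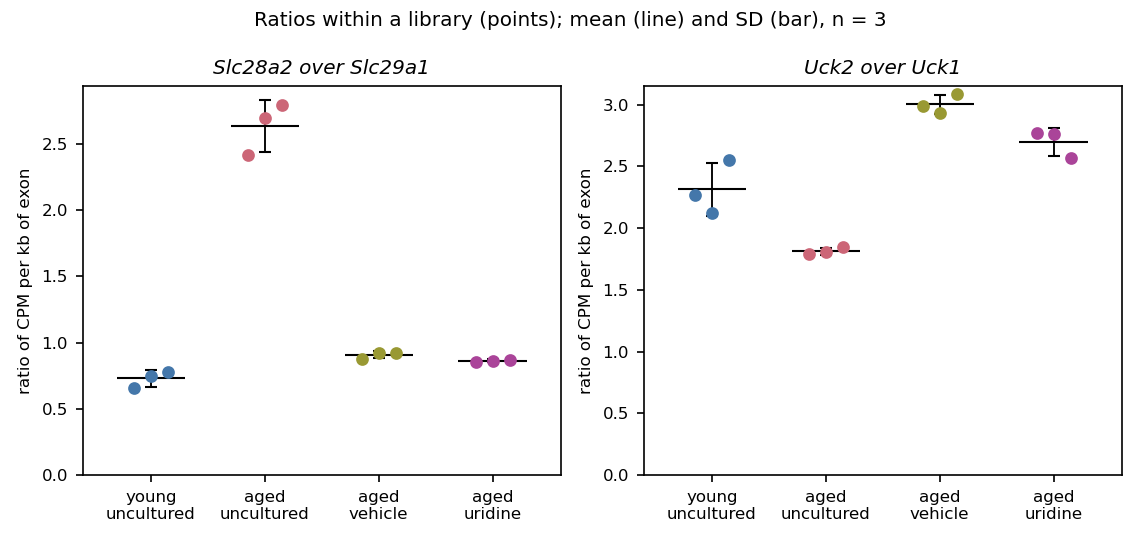
Ratios between members in each library (points, with mean and SD) by group, from levels in CPM per kilobase. The ratio of Slc28a2 to Slc29a1 is above 1 in aged uncultured libraries and below 1 in the other 9.

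Slc29a3 encodes ENT3, the equilibrative transporter of lysosomes, whose loss leads to a build-up of macrophages (ENSMUSG00000020100, chr10:60712072-60752794, minus strand). It was at 68.9, 68.4 and 67.4 CPM in young libraries and at 46.9, 46.7 and 42.3 in aged ones. In culture it was at 83.1, 74.5 and 84.2 CPM with vehicle and 77.4, 75.9 and 79.1 with uridine. The young libraries were a tight group above the aged ones, and the 2 kinds of culture overlapped. The log2 difference with age was -0.59 (SE 0.0557, adjusted p 1.40e-11), and vehicle cultures were 0.83 above uncultured aged cells (SE 0.0551, adjusted p 7.33e-16). Uridine cultures differed from vehicle by -0.06 (SE 0.0506, adjusted p 0.401). The order of groups, vehicle, uridine, young, aged, was shared by the summed monocyte and macrophage and megakaryocyte markers. The first ran at 1206 to 1261 CPM in young, 267 to 280 in aged, 3400 to 3460 in vehicle and 2248 to 2312 in uridine libraries. Of these 8 markers 2 were higher and 3 lower with age, and 5 higher and 3 lower in vehicle culture. Most of that sum was Lyz2, at 995 CPM in young, 140 in aged, 2768 in vehicle and 1793 in uridine libraries as group means. The megakaryocyte sum had medians of 130 CPM in young, 67.4 in aged, 910 in vehicle and 589 in uridine libraries, and the part of these markers was not tested.

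Slc29a2, or ENT2, an equilibrative transporter that also carries nucleobases (ENSMUSG00000024891, chr19:5023860-5031972, plus strand), was low and showed no called difference. Group means were 5.22 ± 0.696 CPM in young, 6.18 ± 0.986 in aged, 7.36 ± 0.608 in vehicle and 6.29 ± 1.73 in uridine libraries (SD, n = 3). Neighbouring groups overlapped throughout the order. The log2 differences were 0.24 (SE 0.184) with age, 0.25 (SE 0.178) for vehicle culture and -0.23 (SE 0.171) for uridine, whose mean lay at 0.498 of the way from vehicle to young, so differences of this size could not be told from 0 at this depth.

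Slc29a4 encodes the plasma membrane monoamine transporter, a distant relative that carries serotonin and dopamine, and adenosine at acid pH (ENSMUSG00000050822, chr5:142692512-142722490, plus strand). It had 10, 2 and 9 counts in the young libraries, 18, 22 and 10 in the aged, 1, 3 and 1 in the vehicle and 5, 6 and 6 in the uridine libraries. The aged uncultured group was highest in its mean at 1.14 ± 0.424 CPM, and it passed the filter on low counts through that group, so a difference from that group was part of how it came to be tested. The rise with age was 1.60 (SE 0.544, adjusted p 0.0101), and it missed the threshold without young replicate 2 (1.18, adjusted p 0.0833) and without aged replicate 2 (1.34, adjusted p 0.0669). Pooled counts of 50 in aged against 5 in vehicle libraries gave a scaled ratio of 12.5 (95% exact counting interval 5.02 to 40.2). The fitted log2 difference of vehicle from aged uncultured cells was -3.55, and it was -4.21 without vehicle replicate 2. Uridine libraries lay above vehicle ones without overlap, at 17 counts against 5 and a ratio of 3.12 (1.10 to 10.8), which did not pass the test (log2 1.57, SE 0.811, adjusted p 0.129). The uridine mean lay at 0.698 of the way to young. These intervals cover counting error and not the spread between libraries.

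Uck1 and Uck2 phosphorylate uridine and cytidine, and Uck2 is the more active enzyme and the one raised in dividing cells. Uck2 (ENSMUSG00000026558, chr1:167222883-167285320, minus strand) was at 266, 266 and 283 CPM in young libraries, 216, 218 and 217 in aged, 232, 230 and 235 in vehicle and 262, 266 and 258 in uridine libraries. Aged libraries were lowest, vehicle libraries next, and the uridine libraries overlapped the young ones. The log2 difference with age was -0.32 (SE 0.0306, adjusted p 1.43e-11). Uridine cultures were 0.17 above vehicle (SE 0.0301, adjusted p 1.51e-05), at 0.756 of the way to young. That way is short, from 232 ± 2.87 CPM in vehicle to 271 ± 9.71 in young libraries (SD, n = 3), and the spread of the place was not measured. With the subtraction the difference was 0.13 (adjusted p 0.00834). Vehicle cultures were 0.10 above uncultured aged cells (adjusted p 0.00437), and with upper quartile scaling 0.04 (adjusted p 0.307). Its order of groups was that of the summed proliferation markers, whose part was not tested. The long noncoding gene Gm2453 overlaps 2.75% of its exon length and held at most 0.25 CPM in any group mean.

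Uck1, the kinase found in most tissues (ENSMUSG00000002550, chr2:32255002-32260159, minus strand), did not follow its paralogue. Young libraries held 59.1, 63.0 and 55.8 CPM and aged ones 60.8, 60.7 and 59.2, with full overlap. Vehicle cultures held 39.1, 39.4 and 38.4 CPM and uridine cultures 47.6, 48.6 and 50.6, both below every uncultured library and separate from each other. The difference with age was 0.02 (SE 0.0565, adjusted p 0.746), and with library totals as the only scaling it was -0.32 (adjusted p 5.83e-06), where the median of all genes was also at -0.32. The difference of vehicle culture from uncultured aged cells was -0.63 (SE 0.0588, adjusted p 9.06e-12) and that of uridine from vehicle 0.33 (SE 0.0583, adjusted p 2.10e-05). The uridine mean was at 0.489 of the way to young, and with the subtraction the difference was 0.15 (adjusted p 0.130).

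The balance of the 2 kinases moved accordingly. In CPM per kilobase, Uck2 over Uck1 was 2.31 ± 0.216 in young, 1.81 ± 0.0285 in aged, 3.0 ± 0.0780 in vehicle and 2.70 ± 0.115 in uridine libraries (SD, n = 3). No aged library reached a young one, and the cultures lay above both. The summed level of both kinases was 331 ± 7.01 CPM in young, 277 ± 1.30 in aged, 271 ± 2.35 in vehicle and 311 ± 3.42 in uridine libraries. The sum in uridine cultures lay above vehicle and below young in every library.

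Upp1, the uridine phosphorylase that opens the breakdown of uridine and makes its ribose available as fuel (ENSMUSG00000020407, chr11:9118103-9136170, plus strand), had 10.1 times between its highest and lowest group means, a range second to the 12.5 times of Slc29a4. The young libraries held 28, 7 and 10 counts, or 1.40, 0.383 and 0.547 CPM. The aged libraries held 5.53, 4.11 and 2.55 CPM, the vehicle cultures 7.68, 6.76 and 9.04 and the uridine cultures 3.55, 4.35 and 3.98. Every young library was below every other one, every vehicle library above, and aged and uridine libraries overlapped. The rise with age was 2.35 (SE 0.317, adjusted p 4.87e-08), and it was 3.11 without young replicate 1, the library with the highest young count. Vehicle cultures were 0.94 above uncultured aged cells (SE 0.234, adjusted p 0.000572). Uridine cultures were below vehicle, with a log2 difference of -0.98 (SE 0.226, adjusted p 0.000638). Its uridine mean lay at 0.549 of the way to young, and with the subtraction the difference was -0.51 (adjusted p 0.203). The summed level of the kinases over that of Upp1, in CPM, was 570 ± 316 in young libraries, 75.4 in aged, 35.1 in vehicle and 79.0 in uridine libraries as group means.

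Cda turns cytidine into uridine (ENSMUSG00000028755, chr4:138338424-138367992, minus strand) and was near the limit of counting. It had 4, 0 and 0 counts in young libraries and 3, 0 and 0 in aged ones, against 9, 14 and 6 with vehicle and 15, 10 and 6 with uridine. All 6 cultures held more counts than any of the 6 uncultured libraries. The scaled ratio of vehicle to aged uncultured cells was 7.73 (95% exact counting interval 2.40 to 39.6) and that of uridine to vehicle 0.979 (0.571 to 1.68). It was not tested with the other genes. In an edgeR fit with no filter, over 29963 genes, the difference of vehicle from aged cells was 2.86 (adjusted p 0.00704). The p-values of that fit cannot be set beside those of the main fit. Its differences with age (-0.05) and between uridine and vehicle (-0.04) were not called.

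Uprt is the homologue of the microbial enzyme that joins uracil to phosphoribosyl pyrophosphate, and whether the mammalian protein does so is not settled (ENSMUSG00000073016, chrX:104482818-104507490, plus strand). It was at 9.50, 7.94 and 8.48 CPM in young libraries and 3.86, 6.96 and 3.72 in aged ones. With vehicle it was at 13.2, 10.7 and 13.7 CPM and with uridine at 12.9, 11.9 and 16.0. The aged libraries were lowest and varied most for their level, and the cultures overlapped each other above both uncultured groups. Its fall with age gave a log2 difference of -0.84 (SE 0.179, adjusted p 0.000107), and vehicle cultures were 1.37 above uncultured aged cells (SE 0.173, adjusted p 9.02e-09). Uridine and vehicle differed by 0.12 (SE 0.146, adjusted p 0.574). It was the 1 tested member whose uridine mean lay outside the interval from vehicle to young, at -0.266 on that scale.

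**Figure D4:**
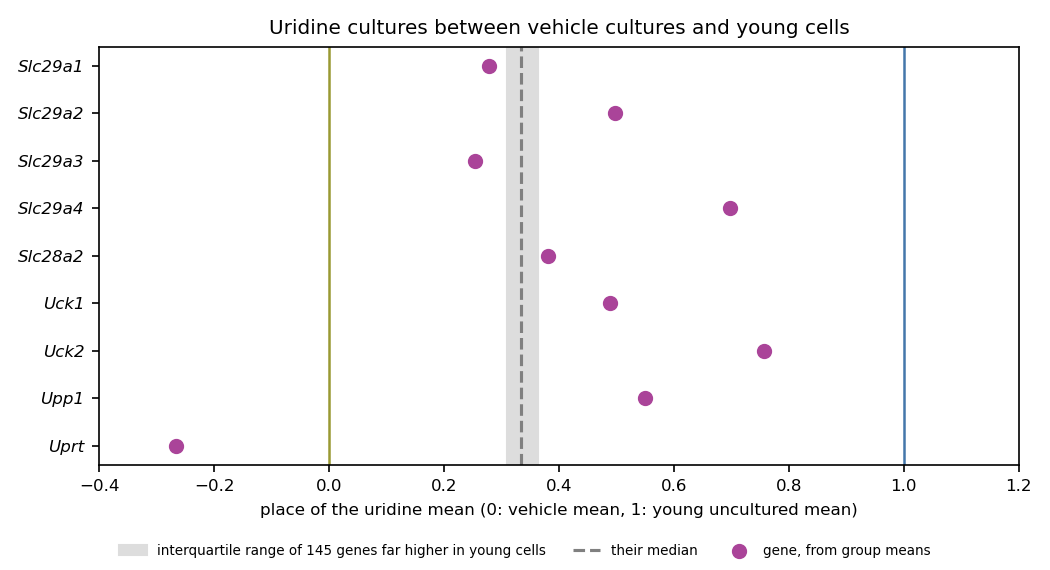
Place of the uridine group mean of each tested member (points) on a scale with the vehicle mean at 0 and the young uncultured mean at 1, with the median (dashed) and interquartile range (grey) of the 145 genes with a young mean of at least 5 CPM and 10 times the vehicle mean or more. Slc29a1, Slc29a3 and Slc28a2 lie near the grey band at 0.278, 0.254 and 0.381, Uck2 lies at 0.756, and Uprt falls below 0. The points carry no spread, and most members differ far less between young and vehicle than the 145 genes do. The 145 genes are all higher in young, whereas the means of Slc29a2, Slc29a3, Upp1 and Uprt are higher in vehicle, so the band is no reference for these members.

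Of 29 other genes of pyrimidine transport, salvage, synthesis and breakdown, 24 were tested. With age 5 were higher and 8 lower, or 54.2%, beside the background of 65.3%. Between uridine and vehicle 4 were higher and 4 lower, or 33.3% beside 38.1%. In vehicle culture 8 were higher and 8 lower, or 66.7% beside 70.5%.

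The 3 salvage kinases of deoxynucleosides in this list differed in their course with age. Tk1, the cytosolic thymidine kinase, was at 114 ± 5.43 CPM in young and 106 ± 6.89 in aged libraries, which overlapped (log2 -0.11, adjusted p 0.0477). Dck, the cytosolic deoxycytidine kinase, was at 139 ± 1.93 CPM in young and 46.7 ± 1.68 in aged libraries, and at 169 in vehicle and 149 in uridine cultures. Tk2, the mitochondrial thymidine kinase, was at 22.8 ± 1.83 CPM in young and 62.0 ± 3.67 in aged libraries, and at 19.5 and 19.8 in the cultures. The log2 differences with age were -1.57 for Dck (adjusted p 4.20e-27) and 1.44 for Tk2 (adjusted p 1.72e-18). Uckl1, the kinase-like relative of Uck1 and Uck2, rose from 27.0 ± 0.877 to 43.9 ± 2.21 CPM with age (log2 0.70, adjusted p 3.86e-11) and was at 32.7 and 29.6 CPM with vehicle and uridine.

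Cmpk2, a mitochondrial nucleotide kinase induced by interferon, was at 36.02 ± 1.38 CPM in young, 14.5 ± 1.24 in aged, 207 ± 6.39 in vehicle and 144 ± 1.98 in uridine libraries. Its difference between vehicle cultures and uncultured aged cells was 3.84 (adjusted p 6.99e-37), and uridine cultures were below vehicle (log2 -0.52, adjusted p 1.04e-13), at 0.368 of the way to young. Nt5c3, which dephosphorylates pyrimidine monophosphates, had the same direction in both, at 57.3 ± 3.10 CPM in aged, 131 ± 1.62 in vehicle and 96.9 ± 8.18 in uridine libraries, the last at 0.462 of the way from vehicle to young. Cad, the enzyme that starts pyrimidine synthesis, was at 338 ± 3.52 CPM in young, 202 ± 2.98 in aged, 241 ± 1.62 in vehicle and 298 ± 8.38 in uridine libraries, the order of Slc29a1 and Uck2, with uridine at 0.587 of the way to young. Umps, which makes UMP at the end of that route, fell with age from 126 to 93.6 CPM (log2 -0.43, adjusted p 1.60e-11) and was at 113 CPM in both cultures.

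The later steps of uracil breakdown were little expressed. Dpyd, the dehydrogenase of uracil, and Slc28a3, a concentrative transporter of purine and pyrimidine nucleosides, had 0 counts in all 12 libraries, which allows up to 0.014 CPM. Slc28a1 had 5 counts, Upp2 65 and Dpys 28 over the 12 libraries. Upb1, the last enzyme of uracil breakdown, had 211 counts in young, 178 in aged, 4 in vehicle and 78 in uridine libraries. The scaled ratio of uridine to vehicle was 17.9 (95% exact counting interval 6.70 to 67.2) and that of aged uncultured to vehicle cells 55.7 (21.4 to 207). Both intervals leave out the spread between libraries. In the edgeR fit, the log2 difference of uridine from vehicle was 4.04 (SE 0.561, adjusted p 2.85e-07). That of vehicle from aged uncultured cells was -5.67 (SE 0.485, adjusted p 8.07e-13). The uridine mean of Upb1 lay at 0.336 of the way from vehicle to young.

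The genes most like the 4 members of widest range were found by the root mean square difference of centred log2(CPM + 0.5) over the 12 libraries, among 10380 protein-coding genes with a mean of at least 5 CPM. For Upp1 they were Cd86, Fas and Lgmn, at differences of 0.26, 0.29 and 0.37. Cd86, a costimulatory surface protein, was at 3.45 CPM in young, 12.4 in aged, 18.8 in vehicle and 11.7 in uridine libraries. For Slc28a2 they were Pcmtd1, Eif1 and Map3k1, at 0.07, 0.08 and 0.08. For Uprt they were Cdc42bpa, G2e3 and A630089N07Rik, at 0.17, 0.20 and 0.21, and for Slc29a4 Mfhas1, Trim45 and Zc3h12a, at 0.21, 0.22 and 0.23. The added 0.5 narrowed the range of Slc29a4, whose group means ran from 0.0913 to 1.14 CPM. Its matches have smaller fold ranges, such as 8.75 to 24.6 CPM for Mfhas1. All these likenesses are descriptions over 12 libraries in 4 groups, with no test.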

How the data were processed

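Poly-A RNA of mouse HSPCs was extracted with Trizol and read as pairs of 150 bp on a NovaSeq 6000, per the labels' protocols. Per the submitters' processing notes, HISAT2 2.0.5 was the aligner and mm10 the build. How reads were counted, and whether strand was used, is not given in the sources used here. The authors deposited raw counts per Ensembl gene for 12 libraries, whose groups came from the sample titles. Identifiers were matched to GENCODE M21 (54495 of 54532).

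Genes were kept by filterByExpr over the 4 groups, scaled with TMM and tested with edgeR 4.0.16 (R 4.3.3) in 1 quasi-likelihood fit to all 12 libraries, with Benjamini-Hochberg adjustment over 16675 genes and a threshold of 0.05. The fit had 8 residual degrees of freedom. Levels are CPM from TMM-scaled totals, also divided by the exon length in kilobases, and an SE is the log2 difference over the square root of F. Alternatives used DESeq2 1.42.0, limma 3.58.1 and other scalings, filters and sets of libraries. Each library was counted once as a replicate. Libraries of a group differed beyond sampling noise, with a common coefficient of variation of 0.0438 in edgeR. That spread does not show whether they are separate animals. No value column was left unused.

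All members could be named, as could any gene of the pathway and marker lists. The genes most like a member were the 3 nearest for each of the 4 tested members of widest range. The members and lists were chosen with earlier results of these data known. In an alternative added after seeing the data, 0.333 of the mean young level of each gene was subtracted from each uridine library before the fit.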

Additional observations from a re-analysis of the deposited data

How the results depend on the processing

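The number of genes called was taken without direction, and those of members as higher and as lower. These numbers stayed within 1.5 times of the main counts under every alternative except 1 added after seeing the data. Other tools called 10595, 6167 and 11536 genes (DESeq2) or 10833, 6522 and 11704 (limma voom) for age, uridine and vehicle culture. Leaving out 1 library, with 17166 to 17265 genes tested, gave 10399 to 10635 genes, 2 to 3 members higher and 4 lower with age. It gave 5461 to 5627 genes, 3 to 4 members higher and 1 lower with uridine. In vehicle culture it gave 11372 to 11611 genes, 5 to 6 members higher and 3 lower. Subtracting 0.333 of the young level from the uridine libraries left 2757 of 16665 genes called, 39.6% of them higher, with 1 member higher and 0 lower. It turned Slc29a1 to -0.096 (adjusted p 0.313) and ended the calls of Slc28a2, Uck1 and Upp1. As the 0.333 was read from these same libraries, genes near that place lose their difference by construction. What genes further along keep follows from their place in the same way. The adjusted p-values after the subtraction are descriptions, and the cause was not tested. Scaling by library totals alone, with immunoglobulin counts left in the totals, moved the median of all genes to -0.32 with age and 0.32 in vehicle culture, the share of calls that were higher from 50.8% to 25.9% and from 50.2% to 69.9%, Uck1 with age to -0.319 (adjusted p 5.83e-06) and Slc29a2 in vehicle culture to 0.59 (adjusted p 0.00347). Members' calls also ended for Uck2 in vehicle culture with upper quartile factors, Slc28a2 with uridine without vehicle replicate 1, and Slc29a4 with age without young or aged replicate 2; the cause was not tested. With a filter of 1 CPM in 3 libraries, or a fit of the 6 libraries compared, Slc29a4 was not tested, which left 2 members higher with age and 2 lower in vehicle culture.

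With replicate number as a block, 10768, 6250 and 11667 genes were called, and no member's call changed. Correlations of same-numbered libraries ran from -0.047 to 0.015, so the numbers were not taken as pairs. Depth limits Cda, Slc29a4 and Upp1 in young cells, at 4, 21 and 45 counts over 3 libraries.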
